A study of Mus musculus with 12 samples.

Results

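Trp53, the gene of the transcription factor p53, and 9 of its known target genes (Mdm2, Btg2, Ei24, Ccng1, Plk2, Fas, Sesn2, Bbc3 and Bax) were followed through 12 RNA-seq libraries of mouse embryonic fibroblasts at day 7. The members were chosen by gene symbol, and all 10 were found among the 24207 genes of the count table. They were chosen with earlier results of these data known, so their counts beside all genes describe and are not an independent test. The 4 groups had 3 libraries each. All cells were C57BL/6 fibroblasts with FUW-OSKM and FUW-M2rtTA, lentiviral vectors that express Oct4, Sox2, Klf4 and Myc (OSKM) when doxycycline is given, and all grew on irradiated feeder fibroblasts in ES medium. The first group was given doxycycline and carried hairpins against both Trim28 and Setdb1. The second was given doxycycline and carried a hairpin against Trim28. The third, here called the induced controls, was given doxycycline and carried a scrambled hairpin. The fourth, the uninduced cells, carried the scrambled hairpin and was not given doxycycline. Trim28 is a corepressor brought to DNA by zinc finger proteins, and Setdb1 works with it by methylating lysine 9 of histone H3. The labels do not say whether feeder cells were removed before RNA was taken, nor whether the replicates were separate cultures, so p-values measure the spread between these libraries, which may be technical.

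p53 is held at a low level by the ubiquitin ligase Mdm2, itself a p53 target, and by the Mdm2 relative Mdm4. It is controlled largely at the level of the protein, so its own transcript need not follow its activity. Once p53 is stabilised by DNA damage or by oncogene expression, it binds response elements made of paired half-sites and activates genes of cell cycle arrest, feedback, repair, metabolism and cell death. In fibroblasts given OSKM, p53 and its target Cdkn1a are known as barriers to reprogramming. Human TRIM28 has been described as a partner of MDM2 that lowers p53.

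Promoter sequences of the members are shown because their motif matches differed. RefSeq promoters (build GRCm38.p6, 250 bases before to 50 bases after a start) were found for all 10 members, in 12 entries. The p53 half-site consensus, searched on both strands, was found in the promoters of 5 members, and 8.36% of all 32851 mouse promoters of the same length held it. A pair of exact matches to the half-site consensus, up to 13 bases apart, was found in none of these windows, and 0.0731% of all promoters held one. The search allowed no mismatch and covered these windows only. Response elements with mismatches, or elsewhere in the gene, would have been missed. The palindrome TGACGTCA, the cyclic AMP response element, was found in Btg2 and Plk2, and 1.79% of all promoters held it. The E-box CACGTG was found in 4 members, Trp53, Bax, Fas and Bbc3, and 7.15% of all promoters held it. A member was counted if any of its entries held the motif, while the shares of all promoters count entries. Bbc3 had 3 entries, and 1 of them held CACGTG. The 250 bases before the start are given for the 5 members with a half-site and for Btg2 and Plk2, 5′ to 3′ on the gene's strand, with the half-site or TGACGTCA in capitals.
Trp53, chr11:69580109-69580358 (plus strand): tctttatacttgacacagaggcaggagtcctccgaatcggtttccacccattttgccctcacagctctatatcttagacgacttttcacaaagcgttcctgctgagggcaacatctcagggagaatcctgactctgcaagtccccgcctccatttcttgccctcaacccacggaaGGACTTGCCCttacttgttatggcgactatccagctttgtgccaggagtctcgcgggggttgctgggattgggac
Mdm2, chr10:117710759-117711008 (minus strand): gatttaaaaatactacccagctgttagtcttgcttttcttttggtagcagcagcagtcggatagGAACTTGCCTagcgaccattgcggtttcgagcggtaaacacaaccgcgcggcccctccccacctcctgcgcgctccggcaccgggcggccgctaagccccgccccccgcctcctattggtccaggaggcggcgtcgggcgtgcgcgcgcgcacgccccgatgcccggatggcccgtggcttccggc
Ccng1, chr11:40755287-40755536 (minus strand): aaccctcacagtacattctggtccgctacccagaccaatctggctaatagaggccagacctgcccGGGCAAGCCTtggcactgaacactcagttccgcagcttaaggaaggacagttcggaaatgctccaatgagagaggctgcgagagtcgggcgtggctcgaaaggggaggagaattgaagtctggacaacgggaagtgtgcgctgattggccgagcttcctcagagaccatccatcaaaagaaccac
Bax, chr7:45466899-45467148 (minus strand): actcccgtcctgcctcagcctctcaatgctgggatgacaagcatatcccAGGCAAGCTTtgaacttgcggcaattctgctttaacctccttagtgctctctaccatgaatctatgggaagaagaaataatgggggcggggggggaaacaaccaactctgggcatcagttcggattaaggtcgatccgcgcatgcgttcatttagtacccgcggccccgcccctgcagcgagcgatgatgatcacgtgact
Ei24, chr9:36797335-36797584 (minus strand): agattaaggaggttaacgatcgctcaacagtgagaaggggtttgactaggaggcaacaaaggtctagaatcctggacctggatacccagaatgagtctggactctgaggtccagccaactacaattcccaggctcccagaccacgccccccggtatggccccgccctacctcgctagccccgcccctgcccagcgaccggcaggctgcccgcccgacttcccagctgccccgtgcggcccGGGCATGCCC
Btg2, chr1:134079156-134079405 (minus strand): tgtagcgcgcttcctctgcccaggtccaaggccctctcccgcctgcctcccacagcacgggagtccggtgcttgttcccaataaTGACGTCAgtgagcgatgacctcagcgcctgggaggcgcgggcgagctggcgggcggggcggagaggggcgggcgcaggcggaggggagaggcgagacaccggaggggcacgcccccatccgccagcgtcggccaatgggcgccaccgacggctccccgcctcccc
Plk2, chr13:110394794-110395043 (plus strand): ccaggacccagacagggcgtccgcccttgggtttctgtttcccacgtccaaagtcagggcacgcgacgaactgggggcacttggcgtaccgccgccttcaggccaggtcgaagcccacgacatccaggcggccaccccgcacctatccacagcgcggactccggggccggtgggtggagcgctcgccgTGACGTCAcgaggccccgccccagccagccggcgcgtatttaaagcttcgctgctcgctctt

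The libraries held 11906701 to 19191649 counted reads, and the members had 169 to 21729 reads each per library, far above the 3 reads that correspond to 0.156 to 0.252 CPM (read counts scaled to library size with TMM factors). The hairpin targets were read first. Trim28 had 107, 95.6 and 107 CPM with both hairpins, 64.1, 52.2 and 59.1 CPM with the Trim28 hairpin, 362, 286 and 337 CPM in induced controls and 261, 266 and 221 CPM in uninduced cells. Setdb1 averaged 63.1 CPM with both hairpins, 122 CPM with the Trim28 hairpin, 81.3 CPM in induced controls and 60.7 CPM in uninduced cells. The double hairpin thus left more Trim28 transcript than the single one (adjusted p = 4.3e-05), and Setdb1 was higher with the Trim28 hairpin than in the induced controls (adjusted p = 8.24e-05). With both hairpins Setdb1 was at 0.777 times the induced controls (edgeR adjusted p = 0.00363) and 0.516 times the Trim28 hairpin (adjusted p = 2.53e-06). At 1.04 times the uninduced cells, it did not pass there (adjusted p = 0.597).

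Induced control 2 and uninduced library 3 (libraries are numbered by replicate) stood apart from the other libraries of their groups, and the members showed it. Among the fifth of tested genes with the most GC-rich transcripts, the median deviation from the group mean was -0.19 on the log2 scale in induced control 2 and -0.16 in uninduced library 3. Among the fifth with the least GC, it was 0.16 and 0.14. In both of these sets the 6 libraries of the hairpin groups stayed between -0.030 and 0.036. Of the members, the 4 with GC content above 53% (Bbc3 at 65.2%, Bax at 63.5%, Sesn2 at 58.7% and Trp53 at 53.3%) were low in both libraries, Trp53 by -0.25 and -0.28. The 3 with the least GC (Ccng1 at 40.8%, Fas at 43.9% and Mdm2 at 46.2%) were high in both, Ccng1 by 0.28 and 0.20. Btg2, Ei24 and Plk2, between 48.0% and 49.9%, deviated by at most 0.060 in either direction. These 2 libraries also had the highest mitochondrial share, up to 2.37% of reads, and results that change without them are given both ways.

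**Figure D1:**
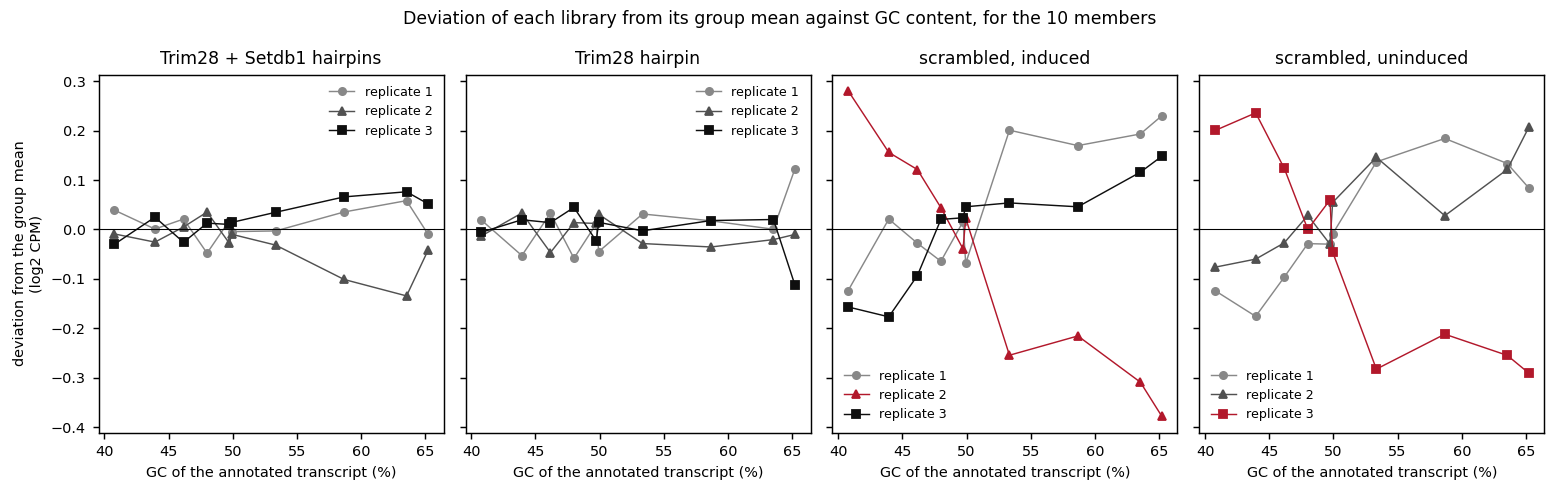
Deviation of each library from its group's mean log2 CPM (vertical axis) against the GC content of the longest annotated transcript (horizontal axis, percent), for the 10 members in the 4 groups. The lines in red, induced control 2 and uninduced library 3, fall with GC content, Ccng1 at 0.28 and 0.20 and Bbc3 at -0.38 and -0.29, while the lines of the hairpin groups stay nearer 0.

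All 10 members passed the filter on low counts, among 14520 genes tested with edgeR. A gene rose or fell where its p, adjusted over all tested genes, was under 0.05. Log2 fold changes below are the estimates of the edgeR model, with 3 libraries a group. Their standard error (SE) was derived from the size of the change and the F statistic of its test.

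With both hairpins, 7 members rose against the induced controls and none fell. They were Mdm2, Ccng1, Btg2, Plk2, Bax, Ei24 and Fas, with log2 changes from 0.19 to 0.59. Of all tested genes 18.1% rose and 18.5% fell, and 36.7% changed. The median log2 change was 0.39 over the 10 members and 0.00 over all tested genes. Trp53, Sesn2 and Bbc3 did not pass, with changes of 0.16, -0.03 and 0.35. No member other than Sesn2 had a negative change, and its unadjusted p with edgeR was 0.787, so that 0 members were lower at an unadjusted p under 0.05. DESeq2 and limma-voom called no member lower either, but fits with offsets for the GC content of each gene called Sesn2 lower, at -0.15 (adjusted p = 0.032) and, with a replicate block as well, at -0.14 (adjusted p = 0.0226). Scaling to library totals turned the split over all genes from 2633 higher and 2689 lower into 2117 higher and 3278 lower, and left 6 members higher, Ei24 no longer passing.

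The Trim28 hairpin alone gave 6 members that rose against the induced controls and none that fell. They were Mdm2, Ccng1, Btg2, Bbc3, Ei24 and Fas, with log2 changes from 0.25 to 0.78. Of all tested genes 13.1% rose, 11.8% fell and 24.9% changed. The median was 0.32 over the members and 0.00 over all tested genes. Without induced control 3, 3 members rose, as Mdm2, Ccng1 and Fas no longer passed (log2 0.20, 0.31 and 0.33, adjusted p = 0.0881, 0.0636 and 0.0816). Sesn2 was the member nearest to a fall, at -0.27 (adjusted p = 0.0607, unadjusted p = 0.0163). It was the 1 member lower at an unadjusted p under 0.05, and passed without the 2 libraries that stood apart, at -0.37 (adjusted p = 0.000799). DESeq2 and limma-voom called no member lower.

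Both hairpins against the Trim28 hairpin alone gave the test of the difference between the 2 knockdowns. Mdm2 and Plk2 rose and Btg2 and Ei24 fell, and 6 members did not pass. Of all tested genes 10% rose, 11.7% fell and 21.7% changed. The median was 0.16 over the members and 0.00 over all tested genes. With only these 2 groups in the fit, 6 members rose, Trp53, Ccng1, Sesn2 and Bax being added, and the same number rose without the 2 libraries that stood apart. Over all tested genes, the number that rose was also larger in these fits, at 2376 and 2397 against 1452. With GC offsets, 4 members rose (Ccng1 and Sesn2 being added) and 3 fell (Bbc3 being added), and the same counts held with a replicate block as well. Over all tested genes, the number that fell with GC offsets and the block was also larger than the 1702 of the main fit.

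In the induced controls, 7 members were lower than in uninduced cells and 1 was higher. Mdm2, Ccng1, Btg2, Plk2, Sesn2, Bax and Fas fell, by log2 changes from -0.14 to -1.69. Ei24 rose by 0.20, and Trp53 and Bbc3 did not pass. Of all tested genes 32.7% fell, 32.7% rose and 65.3% changed, so a call in this comparison was common. The median was -0.35 over the members and -0.02 over all tested genes. Scaling to library totals moved the median of all genes to 0.11 and their split from 4743 higher and 4741 lower to 5829 higher and 3619 lower. Under that scaling 5 members fell and 2 rose, Trp53 passing and Bax and Btg2 no longer passing, with no change of sign among the 10.

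**Figure D2:**
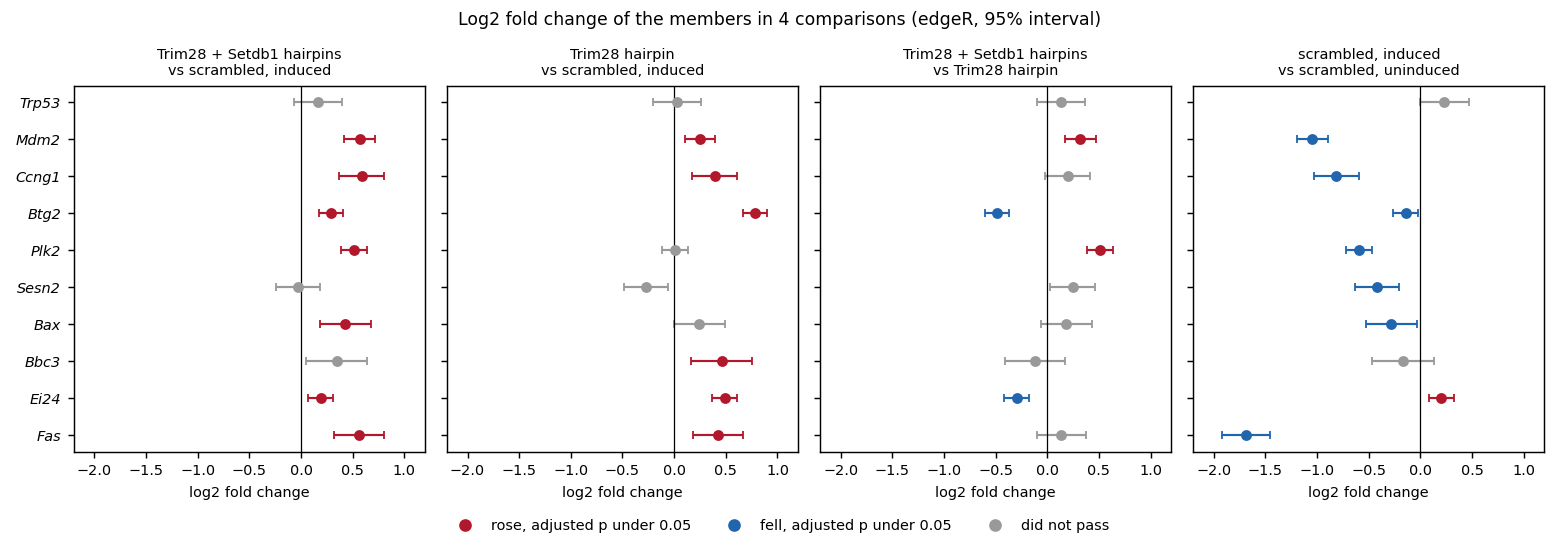
Log2 fold change (horizontal axis) of each member (rows) in 4 comparisons, as points with 95% intervals from edgeR. Red marks members that rose and blue those that fell at an adjusted p under 0.05. Mdm2 lies at 0.57, 0.25, 0.32 and -1.05 from the left panel to the right, and Trp53 is grey in all 4.

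The hairpin groups were also set against the uninduced cells, which the induction comparison shares. With both hairpins 3 members rose (Trp53, Btg2 and Ei24), 3 fell (Mdm2, Sesn2 and Fas) and 4 did not pass, when 31.6% of all genes rose, 27.2% fell and 58.8% changed. For the Trim28 hairpin, 3 rose (Trp53, Btg2 and Ei24), 5 fell (Mdm2, Ccng1, Plk2, Sesn2 and Fas) and 2 did not pass, when 34.1% rose, 32.6% fell and 66.6% changed. The median over the members was 0.03 with both hairpins and -0.23 with the Trim28 hairpin, against -0.35 for the induced controls, each set against the same 3 uninduced libraries.

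**Figure D3:**
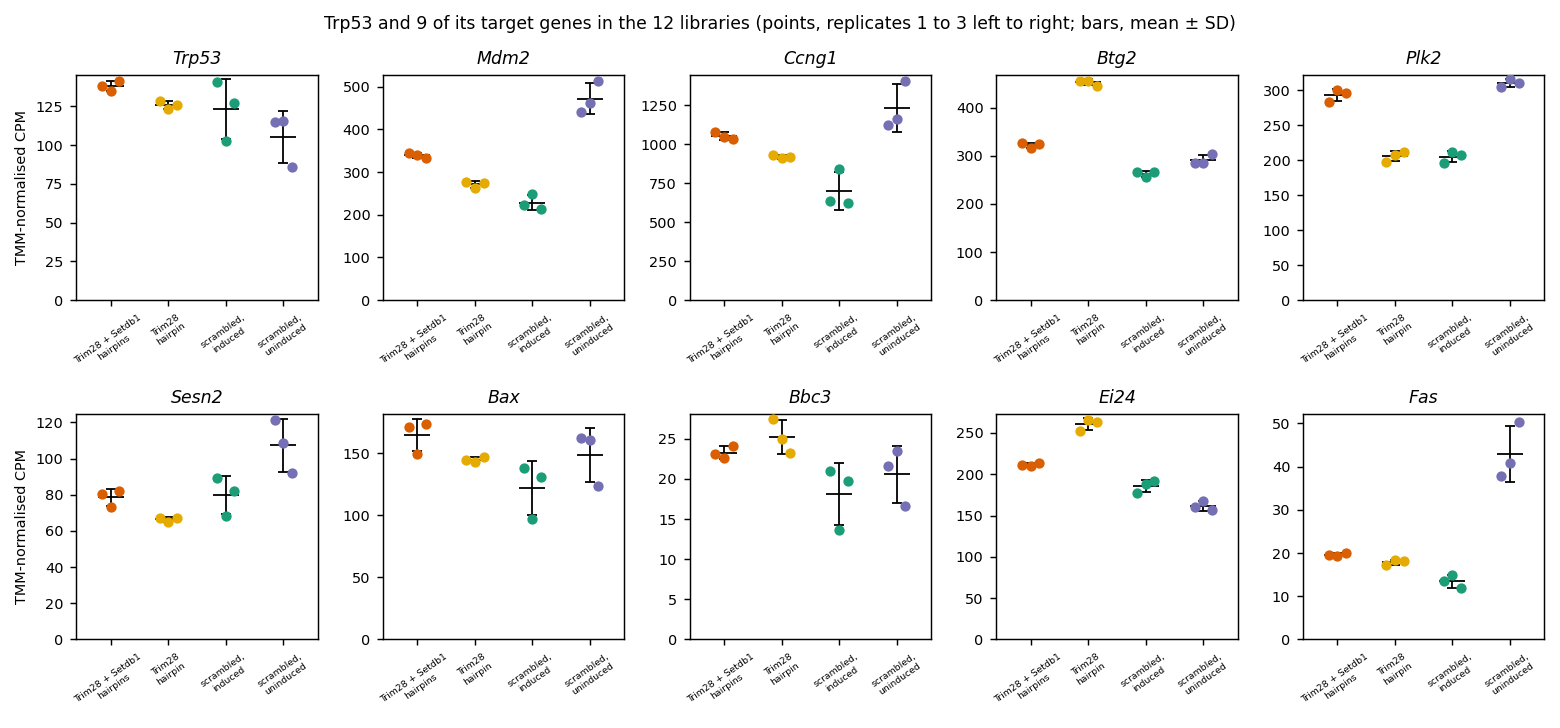
TMM-normalised CPM (vertical axis, from 0) of the 10 members in each of the 12 libraries, by group (horizontal axis). Points are libraries and black bars give the mean ± SD of 3. Mdm2 stands at 333 to 344 CPM with both hairpins, 263 to 278 with the Trim28 hairpin, 214 to 248 in induced controls and 441 to 513 in uninduced cells, with no overlap between groups.

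Trp53 (ENSMUSG00000059552, chromosome 11, 69580359 to 69591873 in the deposited table) did not pass the test against the induced controls with either set of hairpins. It had 138, 135 and 142 CPM with both hairpins, 129, 124 and 126 CPM with the Trim28 hairpin, 141, 103 and 127 CPM in induced controls and 115, 115 and 85.7 CPM in uninduced cells. The lowest library of each control group, induced control 2 and uninduced library 3, was the one that stood apart, and the range of the induced controls spanned that of the Trim28 hairpin. Against the induced controls its log2 change was 0.16 with both hairpins (95% interval -0.07 to 0.39, adjusted p = 0.264) and 0.03 with the Trim28 hairpin (interval -0.21 to 0.26, adjusted p = 0.887). Without the 2 libraries that stood apart these were 0.05 (adjusted p = 0.511) and -0.09 (adjusted p = 0.239), and without induced control 2 alone the second was -0.10. In the induced controls against uninduced cells it was 0.23 ± 0.11 (SE, adjusted p = 0.0747), which passed without those 2 libraries at 0.22 (adjusted p = 0.00496). It passed there also without induced control 2 (0.35), or without uninduced library 1 or 2 (0.30 each). Between the 2 knockdowns it was 0.13 ± 0.11 (adjusted p = 0.417), with no overlap of libraries, and passed without the 2 libraries that stood apart (adjusted p = 0.0441). Trp53 was higher than in uninduced cells with both hairpins, by 0.39 (adjusted p = 0.00573), and with the Trim28 hairpin, by 0.26 (adjusted p = 0.0477). The second call was lost in 8 of the 12 fits that leave out 1 library (all but those without induced control 1 or 2 or uninduced library 1 or 2). Without uninduced library 3 the change was 0.13 (adjusted p = 0.245), and in the other 7 the adjusted p was 0.0556 to 0.114. Wrap53, which lies next to Trp53 on the opposite strand and does not overlap it in the table, averaged 10.7 CPM with both hairpins, 11.4 CPM with the Trim28 hairpin, 10.4 CPM in induced controls and 9.24 CPM in uninduced cells.

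Mdm2 (ENSMUSG00000020184, chromosome 10, 117688888 to 117710758), the ubiquitin ligase of p53 and the core of its negative feedback, separated all 4 groups. It had 344, 340 and 333 CPM with both hairpins, 278, 263 and 274 CPM with the Trim28 hairpin, 224, 248 and 214 CPM in induced controls and 441, 463 and 513 CPM in uninduced cells. No 2 groups overlapped, uninduced cells were highest and induced controls lowest. It rose by 0.57 ± 0.071 (SE, adjusted p = 1.39e-05) with both hairpins and by 0.25 ± 0.071 (adjusted p = 0.0157) with the Trim28 hairpin, and the 2 knockdowns differed by 0.32 ± 0.070 (adjusted p = 0.00412). In the induced controls it fell to 0.483 times the uninduced level (log2 -1.05 ± 0.071, adjusted p = 1.78e-09). The call with the Trim28 hairpin was lost without induced control 3 (0.20) and without Trim28-hairpin library 1 or 3 (adjusted p = 0.0686 and 0.062). With both hairpins Mdm2 was still 0.48 below uninduced cells (adjusted p = 2.19e-05), and with the Trim28 hairpin 0.80 below (adjusted p = 4.38e-08).

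Ccng1 (ENSMUSG00000020326, chromosome 11, 40748552 to 40755311) encodes cyclin G1, which brings a phosphatase to Mdm2 and was an early known p53 target. It had 1082, 1047 and 1031 CPM with both hairpins, 932, 911 and 916 CPM with the Trim28 hairpin, 637, 843 and 622 CPM in induced controls and 1124, 1161 and 1407 CPM in uninduced cells. The groups stood in the same order as for Mdm2 and did not overlap, and the highest library of each control group was the one that stood apart. It rose by 0.59 ± 0.10 (SE, adjusted p = 0.000333) with both hairpins and by 0.39 ± 0.10 (adjusted p = 0.01) with the Trim28 hairpin, and fell by 0.81 ± 0.10 (adjusted p = 3.39e-06) in induced controls against uninduced cells. Without the 2 libraries that stood apart, these were 0.74, 0.55 and -0.86, and the difference between the knockdowns, 0.20 (adjusted p = 0.191 with them), passed (adjusted p = 0.00296). The call with the Trim28 hairpin did not pass without induced control 3 (0.31, adjusted p = 0.0636). Against uninduced cells the double knockdown was at -0.22 (adjusted p = 0.0709), and at -0.12 (adjusted p = 0.0416) without those 2 libraries. It passed there also without induced control 1 (adjusted p = 0.0467) or 2 (adjusted p = 0.0107), or without uninduced library 1 (adjusted p = 0.0423).

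Btg2 (ENSMUSG00000020423, chromosome 1, 134075170 to 134079120), an antiproliferative adaptor of mRNA deadenylation and one of the 2 members with TGACGTCA before its start, was highest with the Trim28 hairpin. It had 326, 316 and 325 CPM with both hairpins, 456, 457 and 446 CPM with the Trim28 hairpin, 266, 256 and 267 CPM in induced controls and 285, 285 and 303 CPM in uninduced cells. No 2 groups overlapped, and the spread within each was small. Its rise with the Trim28 hairpin was the largest of the members in that comparison, 1.72-fold (log2 0.78 ± 0.056, SE, adjusted p = 5.43e-08). With both hairpins it rose by 0.29 ± 0.056 (adjusted p = 0.000663), and between the knockdowns it fell by 0.49 ± 0.055 (adjusted p = 2.06e-05). The fall in induced controls against uninduced cells was small, 0.14 ± 0.056 (adjusted p = 0.0313), and did not pass without induced control 1 (adjusted p = 0.0533) or 2 (0.0944), uninduced library 3 (0.0954), or any 1 of the Trim28 hairpin libraries (0.0523 to 0.0548). Scaled to library totals it was -0.01 (adjusted p = 0.834), and without the 2 libraries that stood apart -0.10 (adjusted p = 0.104). With both hairpins it was 0.15 above uninduced cells (adjusted p = 0.0305), which did not pass without any 1 of the Trim28 hairpin libraries, uninduced library 1 or 2, or double-knockdown library 1 or 3 (adjusted p = 0.0518 to 0.101).

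Plk2 (ENSMUSG00000021701, chromosome 13, 110395044 to 110400844), a kinase of centriole duplication with the other TGACGTCA, differed between the 2 knockdowns. It had 283, 300 and 296 CPM with both hairpins, 198, 208 and 212 CPM with the Trim28 hairpin, 196, 211 and 208 CPM in induced controls and 304, 316 and 310 CPM in uninduced cells. The Trim28 hairpin libraries overlapped the induced controls, and both lay far below the other 2 groups. Plk2 rose by 0.51 ± 0.059 (SE, adjusted p = 5.77e-06) with both hairpins against induced controls and by 0.51 ± 0.058 (adjusted p = 2.32e-05) against the Trim28 hairpin. The single hairpin gave Plk2 a change of 0.01 (95% interval -0.12 to 0.13, adjusted p = 0.958), and its sign turned without induced control 1 (-0.04) or without 1 of 4 libraries of the hairpin groups (-0.03 at the lowest, without Trim28-hairpin library 3). In induced controls Plk2 fell to 0.661 times the uninduced level (log2 -0.60 ± 0.059, adjusted p = 1.69e-07). With both hairpins it stood at -0.08 against uninduced cells (interval -0.21 to 0.04, adjusted p = 0.237).

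Sesn2 (ENSMUSG00000028893, chromosome 4, 132492032 to 132510501), a stress-induced inhibitor of the mTORC1 growth pathway, did not pass against the induced controls with either set of hairpins. It had 80.4, 73.2 and 82.2 CPM with both hairpins, 67.1, 64.7 and 67.1 CPM with the Trim28 hairpin, 89.3, 68.4 and 82.0 CPM in induced controls and 121, 109 and 92.0 CPM in uninduced cells. All uninduced libraries were above all others, the Trim28 hairpin libraries were below all others, and the double knockdown overlapped the induced controls. Sesn2 fell by 0.42 ± 0.10 (SE, adjusted p = 0.00153) in induced controls against uninduced cells. Its change was -0.03 with both hairpins (95% interval -0.24 to 0.19, adjusted p = 0.852) and turned positive without induced control 1 (0.04) or double-knockdown library 2 (0.01), and it passed as a fall under GC offsets (-0.15, adjusted p = 0.032). For the Trim28 hairpin the change was -0.27 ± 0.10 (adjusted p = 0.0607) and passed without induced control 2 (-0.38, adjusted p = 0.0062) or without uninduced library 1 (adjusted p = 0.0459) or 3 (adjusted p = 0.026). Between the knockdowns it was 0.24 ± 0.10 (adjusted p = 0.0974), and passed without induced control 2 (adjusted p = 0.0435), without uninduced library 3 (adjusted p = 0.0475) and without both (adjusted p = 0.00706). A predicted gene, Gm12981, overlaps Sesn2 in the annotation and held 82 reads over the 12 libraries.

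Bax (ENSMUSG00000003873, chromosome 7, 45461695 to 45466898), which forms pores in the mitochondrial outer membrane, rose with both hairpins. It had 171, 150 and 173 CPM with both hairpins, 145, 143 and 147 CPM with the Trim28 hairpin, 138, 97.4 and 131 CPM in induced controls and 162, 161 and 124 CPM in uninduced cells. The lowest library of each control group was the one that stood apart, and the uninduced libraries overlapped those of every other group. The rise with both hairpins was 0.43 ± 0.12 (SE, adjusted p = 0.00877), and 0.29 (adjusted p = 0.00177) without the 2 libraries that stood apart. For Bax the Trim28 hairpin gave 0.24 ± 0.12 (adjusted p = 0.144), and 0.11 (adjusted p = 0.208) without them. It passed as a rise with no filter on low counts (0.24, adjusted p = 0.0189) and under GC offsets (0.20, adjusted p = 0.00311). Between the knockdowns it was 0.19 ± 0.12 (adjusted p = 0.277), and passed without them (adjusted p = 0.0187). The fall in induced controls against uninduced cells, 0.28 ± 0.12 (adjusted p = 0.0424), did not pass without induced control 2 (-0.14), uninduced library 1 (-0.22) or 2 (-0.23), any 1 of the Trim28 hairpin libraries (adjusted p = 0.0579 to 0.0583), or double-knockdown library 3 (adjusted p = 0.0546). Without both of the libraries that stood apart it was -0.27 (adjusted p = 0.00317). Bax with the Trim28 hairpin stood at -0.04 against uninduced cells (adjusted p = 0.777), a sign that turned without uninduced library 1 (0.03) or 2 (0.02), and at -0.16 without the 2 libraries that stood apart (adjusted p = 0.0339). A second annotated gene, Gm45808, covers 915 bases of Bax on the same strand in GENCODE M21 and was not used here.

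Bbc3 (ENSMUSG00000002083, chromosome 7, 16309616 to 16318205) encodes Puma, a BH3-only protein that frees Bax to act. It had 23.1, 22.6 and 24.1 CPM with both hairpins, 27.4, 25.0 and 23.3 CPM with the Trim28 hairpin, 20.9, 13.7 and 19.8 CPM in induced controls and 21.6, 23.5 and 16.6 CPM in uninduced cells. Both hairpin groups lay above all induced controls, and the uninduced libraries overlapped the other 3 groups. It rose with the Trim28 hairpin by 0.46 ± 0.14 (SE, adjusted p = 0.0236), and did not pass without induced control 2 (0.30, adjusted p = 0.0779) or Trim28-hairpin library 1 (0.39, adjusted p = 0.102) or 2 (0.46, adjusted p = 0.0656), but did without both of the libraries that stood apart (0.31, adjusted p = 0.0139). With both hairpins it was 0.35 ± 0.14 (adjusted p = 0.0649), which passed without induced control 1 (0.44, adjusted p = 0.0306) or uninduced library 3 (adjusted p = 0.0341) and was 0.19 (adjusted p = 0.0898) without the 2 libraries. Between the knockdowns the change was -0.12 (95% interval -0.41 to 0.17), which was -0.28 under GC offsets and passed there as a fall (adjusted p = 0.0114). In induced controls against uninduced cells it was -0.17 (interval -0.47 to 0.13). Bbc3 with the Trim28 hairpin stood 0.29 above uninduced cells (adjusted p = 0.0744), which passed in 8 of 23 alternatives. These were the fits without induced control 2 (adjusted p = 0.0253) or uninduced library 2 (adjusted p = 0.0348), with only the 2 groups (adjusted p = 0.0304), with library totals (0.40, adjusted p = 0.0171), with no filter (adjusted p = 0.0236), with DESeq2 (adjusted p = 0.0487) and with GC offsets (0.40, adjusted p = 0.000192) or GC offsets and a replicate block (adjusted p = 0.000156).

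Ei24 (ENSMUSG00000062762, chromosome 9, 36779159 to 36797361), an endoplasmic reticulum protein found as a gene induced by etoposide, has its half-site directly before the start. It had 211, 210 and 214 CPM with both hairpins, 252, 266 and 263 CPM with the Trim28 hairpin, 177, 189 and 192 CPM in induced controls and 160, 168 and 156 CPM in uninduced cells. No 2 groups overlapped, and uninduced cells were lowest and the Trim28 hairpin highest. Ei24 rose by 0.19 ± 0.058 (SE, adjusted p = 0.0174) with both hairpins, by 0.49 ± 0.058 (adjusted p = 1.22e-05) with the Trim28 hairpin and by 0.20 ± 0.058 (adjusted p = 0.00619) in induced controls against uninduced cells. Between the knockdowns it fell by 0.30 (adjusted p = 0.00167). The rise with both hairpins did not pass in 6 of 23 alternatives. These were the fits without induced control 1 (0.14, adjusted p = 0.0838) or double-knockdown library 1 (adjusted p = 0.0506) or 3 (adjusted p = 0.0699), with library totals, with no filter on low counts and with only the 2 groups.

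Fas (ENSMUSG00000024778, chromosome 19, 34290659 to 34327770), a death receptor at the cell surface, had the largest fall of the members in induced controls. It had 19.7, 19.3 and 19.98 CPM with both hairpins, 17.2, 18.3 and 18.1 CPM with the Trim28 hairpin, 13.6, 14.9 and 11.8 CPM in induced controls and 37.8, 41.0 and 50.3 CPM in uninduced cells. The uninduced libraries were above all others by a wide margin, and the induced controls were below all others. In induced controls Fas stood at 0.310 times the uninduced level (log2 -1.69 ± 0.11, SE, adjusted p = 1.13e-09). It rose by 0.56 ± 0.11 (adjusted p = 0.00118) with both hairpins and by 0.42 ± 0.12 (adjusted p = 0.0129) with the Trim28 hairpin, and the change between the knockdowns was 0.14 ± 0.11 (adjusted p = 0.413). The call with the Trim28 hairpin was lost without induced control 3 (0.33) or Trim28-hairpin library 2 (0.40, adjusted p = 0.0518). Fasl, the gene of its ligand, had too few reads to be tested, with group means of 0.0197 to 0.0375 CPM.

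Per kilobase of annotated exon (GENCODE M21), Ccng1 was the highest member in all 4 groups, at 299.9 ± 7.41 CPM per kb with both hairpins, 262 ± 3.10 with the Trim28 hairpin, 199 ± 35.1 in induced controls and 350.4 ± 43.8 in uninduced cells (SD, n = 3). Btg2 came next and then Bax in each group, at 118 and 105 CPM per kb with both hairpins and 106 and 94.5 in uninduced cells, where Bax (78.6 to 103) and Btg2 (104 to 110) nearly met and Mdm2, at 86.7 to 101, overlapped Bax. Mdm2, Plk2 and Ei24 followed, and Ei24 and Mdm2 did not differ beyond their spread with the Trim28 hairpin (53.5 ± 1.46 and 53.4 ± 1.53 CPM per kb). Plk2 and Mdm2 lay within their spread with both hairpins (65.3 ± 1.93 and 66.7 ± 1.102) and in induced controls (45.7 ± 1.79 and 44.9 ± 3.47). Trp53 itself was at 34.2 ± 0.791 CPM per kb with both hairpins, 31.1 ± 0.650 with the Trim28 hairpin, 30.5 ± 4.77 in induced controls and 26.0 ± 4.19 in uninduced cells, below 6 of its targets in the first 3 groups. Sesn2, Bbc3 and Fas were lowest with the hairpins and in induced controls, where Fas and Bbc3 had 6.51 ± 0.753 and 8.54 ± 1.83 CPM per kb. In uninduced cells Fas (20.9 ± 3.16) was above Bbc3 (9.70 ± 1.67).

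The members did not share 1 pattern over the 12 libraries. Likeness was measured as the root mean square distance between log2 CPM profiles, each centred on its own mean. The closest pairs of members were Bbc3 and Bax (0.149), Btg2 and Ei24 (0.151) and Mdm2 and Ccng1 (0.152), and the 2 libraries that stood apart entered these distances. Trp53 lay nearest to Bax (0.191) and farthest from Fas (0.767). Among 12517 other genes, the profiles nearest to Trp53 were those of Psmd3 (0.047), Oxa1l (0.048), Dohh (0.062), Xpo6 (0.064) and Nfyc (0.068), each nearer than any member. Nearest to Mdm2 were Impact (0.047), Vcam1 (0.059), Fam13b (0.067), Serinc3 (0.069) and Arhgap29 (0.080).

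Of 22 regulators of p53 that are not members, 4 rose and 5 fell with both hairpins, when 18.1% of all tested genes rose and 18.5% fell. The all-gene shares that rose and fell were 13.1% and 11.8% with the Trim28 hairpin and 10% and 11.7% between the knockdowns. In induced controls against uninduced cells they were 32.7% and 32.7%. The counts of this list and of those that follow stand beside these shares. Mdm4, the Mdm2 relative that blocks the activation domain of p53, averaged 159 CPM with both hairpins, 216 CPM with the Trim28 hairpin, 278 CPM in induced controls and 148 CPM in uninduced cells. It fell with both hairpins (log2 -0.80, adjusted p = 1.37e-05) and with the Trim28 hairpin (-0.37, adjusted p = 0.012), differed between the knockdowns (-0.44, adjusted p = 0.00508), and rose in induced controls against uninduced cells (0.91, adjusted p = 6.06e-07). With both hairpins Chek2, a kinase that phosphorylates p53, fell by 0.61 (adjusted p = 0.000303), Ppm1d, a phosphatase that counters such kinases, fell by 0.31 (adjusted p = 0.0136), and Trim24, a ubiquitin ligase of p53, rose by 1.05 (adjusted p = 1.95e-08). In the single knockdown 2 rose, Trim24 (0.64) and Ppp1r13b (0.28), and 2 fell, Chek2 (-0.40) and Mdm4. Between the knockdowns 1 rose (Trim24, 0.40) and 4 fell, Mdm4, Ppm1d (-0.35) and Ep300 (-0.31) first. In induced controls 12 rose and 3 fell against uninduced cells, Usp10 (0.81), Mdm4 and Chek1 (1.11) among those that rose and Rchy1 (-0.64) among those that fell. The median log2 change of these regulators was -0.14 with both hairpins, 0.05 with the Trim28 hairpin, -0.17 between the knockdowns and 0.28 in induced controls, beside 0.00, 0.00, 0.00 and -0.02 over all tested genes.

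Among 15 other targets of arrest and growth control, 7 rose and 1 fell with both hairpins, when 18.1% of all genes rose. Gadd45g rose by 1.12 (adjusted p = 7.81e-07) and Epha2 by 0.40 (adjusted p = 0.00127), and Cd82 fell by 0.36 (adjusted p = 0.0302). Cdkn1a, the cell cycle inhibitor p21 and the best known p53 target, had 757, 693 and 746 CPM with both hairpins, 694, 677 and 683 CPM with the Trim28 hairpin, 668, 566 and 662 CPM in induced controls and 888, 899 and 796 CPM in uninduced cells. Every double-knockdown library was above every induced control, and all uninduced libraries were above the rest. Its log2 change was 0.21 with both hairpins (adjusted p = 0.0327), 0.12 with the Trim28 hairpin (adjusted p = 0.28), 0.10 between the knockdowns (adjusted p = 0.383) and -0.45 in induced controls (adjusted p = 5.41e-05). In the single knockdown 5 rose and 1 fell, with Gadd45g (0.77) and Sfn (0.35) among those that rose and Gadd45a (-0.31) the other way. Between the knockdowns 4 rose and 2 fell, with Gadd45a (0.54) and Gdf15 (1.05) among those that rose and Tgfa (-0.76) the other way. In induced controls 8 fell and 3 rose, with Rprm (-1.56) and Gadd45g (-1.03) among those that fell and Sfn (5.33) the other way. Sfn is also an epithelial gene. The medians of the arrest and growth list in the same 4 comparisons were 0.02, 0.12, 0.00 and -0.45.

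Of 15 tested targets of cell death, 13 fell and 1 rose in induced controls against uninduced cells, when 32.7% of all genes fell. Steap3 fell by 1.58 (adjusted p = 7.27e-09), Pidd1, the scaffold of caspase-2, by 0.85 (adjusted p = 4.96e-06) and Aifm2 by 0.70 (adjusted p = 2.58e-05). Perp, a desmosome protein of epithelia as well as a death gene, rose by 1.00 (adjusted p = 6.89e-08). With both hairpins 5 rose and 1 fell. Pmaip1, the gene of the BH3-only protein Noxa, rose by 0.75 (adjusted p = 0.000187), Pidd1 by 0.62 (adjusted p = 0.000411) and Tnfrsf10b, a death receptor, by 0.34 (adjusted p = 0.000513), and Perp fell by 0.37 (adjusted p = 0.00422). Under the Trim28 hairpin 2 rose, Tnfrsf10b (0.27) and Pmaip1 (0.47). Pmaip1 did not pass between the knockdowns (0.28, adjusted p = 0.112), where 4 rose, with Aifm2 (0.48), Steap3 (0.42) and Pidd1 (0.35) first, and Perp fell (-0.32). In induced controls Pmaip1 fell by 0.35 (adjusted p = 0.0211). The death targets had medians of 0.19, -0.02, 0.24 and -0.39 in these comparisons.

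Of 18 targets of repair and metabolism, 7 fell and 4 rose with both hairpins, when 18.5% of all genes fell and 18.1% rose. Ddit4, an mTORC1 inhibitor (-0.53), Prkab1 (-0.50) and the replication clamp Pcna (-0.36) came first among those that fell, and Gpx1 (0.56) went the other way. For the Trim28 hairpin 3 rose (Gpx1, 9630033F20Rik and Ephx1, by 0.38, 0.27 and 0.17) and Pcna fell by 0.24. Between the knockdowns 5 fell and 1 rose, Prkab1 (-0.57), 9630033F20Rik (-0.60) and Ddit4 (-0.45) first and Dcxr (0.39) the other way. In induced controls 8 rose and 6 fell, 9630033F20Rik, the table's name for the glycolysis regulator Tigar (2.34), Pcna (0.93) and Prkab1 (0.72) first and Ephx1 (-0.86) the other way. Medians of this list were -0.21, 0.06, -0.08 and -0.01.

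Of 18 tested genes of the Bcl2 family and of death receptor signalling, with which Bax, Bbc3 and Fas act, 4 rose and 3 fell with both hairpins. Of all tested genes 18.1% rose and 18.5% fell in that comparison. The survival gene Bcl2l1 rose by 0.28, Fadd, the adaptor of Fas, by 0.53 and Xiap by 0.35, and Bmf fell by 1.098. Under the Trim28 hairpin 4 rose and 2 fell, Bcl2l1 (0.35), Bcl2 (0.46) and Xiap (0.40) first and Bmf (-0.59) the other way. Between the knockdowns Hrk (-0.96) and Bmf (-0.51) fell. In induced controls 6 fell and 3 rose, when 32.7% of all genes fell and 32.7% rose, with Bcl2l2 (-0.67), Bad (-0.52) and Bcl2l1 (-0.23) first. The rising gene with the smallest p was Hrk, at 8.22 CPM in induced controls and 0.0216 CPM in uninduced cells, where it was under 3 reads per library. This list had medians of 0.10, 0.10, -0.04 and -0.06. Of 10 tested paralogs of the members, 6 fell with both hairpins and 4 with the Trim28 hairpin, when 18.5% and 11.8% of all genes fell. Trp63, the p53 relative of epithelial stem cells, averaged 1.37 CPM with both hairpins, 1.17 CPM with the Trim28 hairpin, 3.69 CPM in induced controls and 4.65 CPM in uninduced cells. It fell by 1.40 (adjusted p = 0.00104) with both hairpins and by 1.63 (adjusted p = 0.000604) with the Trim28 hairpin. Its change of 0.23 between the knockdowns (adjusted p = 0.678) and of -0.36 in induced controls (adjusted p = 0.198) did not pass, and Trp73 had too few reads to be tested. Plk1 (-0.36) and Ccng2 (-0.39) fell with both hairpins, and Plk4 (-0.42) and Plk1 (-0.28) with the Trim28 hairpin. In induced controls Btg1 (-0.63), Ccni (-0.23) and Ccng2 (-0.33) fell and Plk1, a mitotic kinase, rose (1.37). The paralogs had medians of -0.31, -0.20, 0.02 and -0.12.

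**Figure D4:**
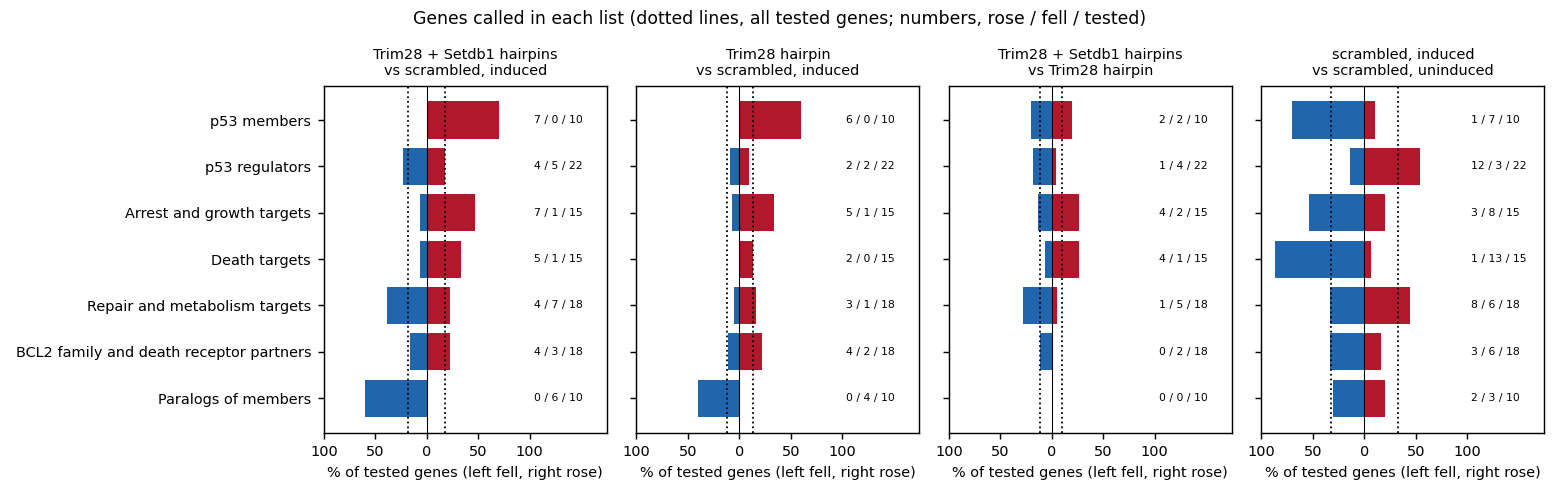
Share of the tested genes of each list that rose (red, right of 0) or fell (blue, left of 0) in 4 comparisons, as percent of tested genes, with the shares over all tested genes as dotted lines and the numbers of genes that rose, fell and were tested at the right. The members had 7, 6, 2 and 1 that rose and 0, 0, 2 and 7 that fell from the left panel to the right.

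Markers of cell type and of the cell cycle moved between the same groups, and their part in the members' changes was not tested. In bulk RNA, fewer cells of a type and less RNA per cell cannot be told apart. The summed CPM of 10 fibroblast genes was 16129 to 18748 with both hairpins, 12024 to 13602 with the Trim28 hairpin, 15032 to 22052 in induced controls and 21957 to 25869 in uninduced cells. Of these 10 genes, 4 fell and 2 rose with both hairpins, 6 fell and 1 rose with the Trim28 hairpin, and 6 fell and 2 rose in induced controls. Of all tested genes 18.5%, 11.8% and 32.7% fell and 18.1%, 13.1% and 32.7% rose in these comparisons. The sum of 10 epithelial genes was 1105 to 1374, 1935 to 2202, 1955 to 2469 and 25.4 to 28.5 CPM in the same order of groups, with Esrp1 at 0 in uninduced cells. That of 8 pluripotency genes other than the vector-borne factors was 121 to 147, 197 to 222, 178 to 245 and 0.250 to 0.842 CPM, with Zfp42, Utf1 and Tdgf1 at 0 in uninduced cells and Dppa4 at 0 with the Trim28 hairpin. L1td1 made up most of this sum in the groups given doxycycline, averaging 125, 194 and 188 CPM. Of the 7 tested pluripotency genes, 6 fell with both hairpins (median log2 change -1.27) and 4 with the Trim28 hairpin (median -1.15), and none rose. All 7 rose in induced controls against uninduced cells. The uninduced libraries thus held fibroblast transcripts and hardly any transcript of these 8 pluripotency genes. Fibroblast transcripts of the labelled cells and of any feeder cells left in cannot be told apart, nor can those of the members.

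The 12 proliferation genes summed to 890 to 1015 CPM with both hairpins, 1039 to 1056 with the Trim28 hairpin, 1184 to 1335 in induced controls and 569 to 646 in uninduced cells. With both hairpins 10 of the 12 fell, with the Trim28 hairpin 9 fell, and all 12 rose in induced controls. Of all tested genes 18.5% and 11.8% fell and 32.7% rose in these comparisons. Between the knockdowns their median log2 change was -0.05. All 4 reprogramming factors fell with both hairpins against induced controls. Myc was at 379 against 507 CPM (log2 -0.42, adjusted p = 0.00647), Pou5f1 at 367 against 487 CPM (-0.41, adjusted p = 0.00916), Sox2 at 111 against 161 CPM (-0.54, adjusted p = 0.0237) and Klf4 at 318 against 462 CPM (-0.54, adjusted p = 0.000396), where reads of the vectors and of the cells' own genes cannot be told apart. The Trim28 hairpin libraries averaged 550 CPM for Myc, 578 CPM for Pou5f1, 191 CPM for Sox2 and 488 CPM for Klf4, and no factor passed against induced controls (adjusted p = 0.123 to 0.593). Uninduced cells averaged 89.3 CPM for Myc, 19.5 CPM for Pou5f1, 11.1 CPM for Sox2 and 130 CPM for Klf4. All 4 were higher in induced controls than there, by log2 2.50, 4.64, 3.87 and 1.83. Whether the vectors were read without doxycycline was not tested. The 6 macrophage genes summed to 43.2 to 51.9, 54.7 to 63.1, 52.7 to 64.3 and 7.45 to 8.29 CPM in the same order, with Emr1 at 0 with the Trim28 hairpin, and 5 endothelial genes to 42.5 to 50.7, 61.5 to 66.8, 43.0 to 56.8 and 11.5 to 12.4 CPM. Most of the first sum in the groups given doxycycline was Laptm5 (39.5, 49.2 and 42.4 CPM, and 0.276 CPM in uninduced cells). Of 4 tested macrophage genes, 3 rose in induced controls against uninduced cells and Lyz2 fell (log2 -1.40). Most of the second sum was Tek (42.5, 60.7, 46.6 and 7.43 CPM). Of 3 tested endothelial genes, 2 rose in induced controls and Kdr fell (-1.47).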

How the data were processed

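RNA of 12 libraries (4 groups of 3, taken from the sample titles) was extracted with Trizol and prepared with a TruSeq RNA kit, per the labels' protocols. The authors deposited whole-number read counts for 24207 genes. Per the submitters' processing notes, TopHat2 2.0.12, Bowtie 1.1 and HTSeq were used. The genome build and the use of strand are not given in the sources used here. Coordinates of 4 of the 10 members equal those of GENCODE M21.

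The main test was the quasi-likelihood F-test of edgeR 4.0.16 (R 4.3.3, with TMM factors, 1 term per group over 12 libraries, minimum count 10 and minimum total 15, Benjamini-Hochberg adjustment over 14520 genes), and checked with DESeq2 1.42.0 and limma 3.58.1. The members and lists were chosen with earlier results of these data known. Named are the members, Mdm4, Cdkn1a, Pmaip1, Trp63 and Trp73, of each list up to 3 genes of lowest p in the direction of most calls and 1 in the opposite one, the 5 profiles nearest to Trp53 and Mdm2, overlapping genes, and Trim28 and Setdb1. Marker and factor genes were added. A gene of the arrest and growth list that this rule names is not reported here, and the counts and medians of that list include it, so the genes named there need not be its most changed. Residuals of libraries with the same replicate number correlated most clearly between both hairpins and induced controls (r from 0.14 to 0.31). Among the other groups given doxycycline they correlated more weakly but always positively (r from 0.032 to 0.19). A replicate block changed no member's call between both hairpins and induced controls. Libraries within a group differed by more than counting noise (chi-square over its degrees of freedom, 1.90 to 17.5). The floor of 3 reads covers counting error only.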

Additional observations from a re-analysis of the deposited data

How the results depend on the processing

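Each member's change in 6 comparisons was recomputed under 23 alternatives. Of 1380 values, 1249 kept direction and side of the threshold, 60 passed only under the alternative, 55 no longer passed and 16 changed sign. GC offsets and leaving out both libraries that stood apart were chosen after seeing the data.

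In induced controls against uninduced cells, 2 members in place of 1 rose (Trp53 added) with RLE factors, library totals, no filter, DESeq2, GC offsets with or without a replicate block, and without the 2 libraries. The falls of Bax and of Btg2 there did not pass in 11 of 23 alternatives each. Both were lost with RLE factors, library totals and only the 2 groups. With DESeq2, with no filter and without the 2 libraries, 1 of them was lost. With the Trim28 hairpin, 1 member (Sesn2) in place of 0 fell with library totals, no filter, the replicate block, only the 2 groups, both GC fits and without the 2 libraries. Bax was added to the 6 that rose there under both GC fits and with no filter. With both hairpins, 1 (Sesn2) in place of 0 fell under both GC fits. Ei24 left the 7 that rose there with library totals, with only the 2 groups and with no filter, where Bbc3 passed in its place. Between the knockdowns, 4 in place of 2 rose and 3 in place of 2 fell (Bbc3 added) under both GC fits, and 6 rose with only the 2 groups or without the 2 libraries. The cause was not tested.

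Leaving out each library in turn gave, for rising and falling members, 6 to 8 and 0 to 0 with both hairpins, 3 to 6 and 0 to 1 with the Trim28 hairpin, 2 to 3 and 2 to 2 between the knockdowns, and 1 to 2 and 5 to 7 in induced controls. Against uninduced cells it gave 2 to 3 and 3 to 4 with both hairpins and 2 to 4 and 5 to 5 with the Trim28 hairpin.

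Signs turned where changes were near 0. Plk2 with the Trim28 hairpin was -0.012 with library totals and -0.00071 with only the 2 groups, and ran from -0.038 to 0.026 when libraries were left out. Trp53 there ran from -0.10 to 0.12 when libraries were left out, with -0.09 without the 2 libraries. Sesn2 with both hairpins ran from -0.14 to 0.044. Bax with the Trim28 hairpin against uninduced cells was 0.073 with library totals and 0.038 under both GC fits, and ran from -0.16 to 0.025.

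Same-number libraries also had positive residual correlations between the induced controls and the Trim28 hairpin (0.061 to 0.16) and between the knockdowns (0.032 to 0.19). These were weaker than with both hairpins against induced controls, and some libraries of different number reached 0.086 and 0.067, so pairing there was left unsettled. Against uninduced cells they ran from -0.22 to 0.21. Outside the comparison of both hairpins with induced controls, the block changed 1 member call, Sesn2 with the Trim28 hairpin (-0.27, adjusted p = 0.0418). Over all genes, the count higher between the knockdowns (1452) was 2376 with only the 2 groups and 2397 without the 2 libraries, and 772 to 893 without Trim28 hairpin replicate 2 or 3 or double-knockdown replicate 1. The count lower (1702) was 2813 under GC offsets with the block, and 1057 and 1028 without Trim28 hairpin replicate 2 or double-knockdown replicate 1. Bbc3, one of the members with few reads, had the widest error in each comparison.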
